A study of Mus musculus with 6 samples.

Results

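The 10 genes described here encode feedback inhibitors of mitogen-activated protein kinase (MAPK) signalling, Dusp1, Dusp2, Dusp4, Dusp5, Dusp6, Dusp10, Spry1, Spry2, Spred1 and Spred2. They were selected by name from 47643 genes in each table, and all 10 were present once. RNA was sequenced from regulatory T cells, the suppressive CD4+ lineage defined by the transcription factor FOXP3, sorted from mouse bone marrow as CD4+ cells carrying a FOXP3-GFP reporter. The myeloma group is 3 libraries (replicate numbers 3, 4 and 5) from mice injected with Vk*MYC cells, a transplantable mouse model of multiple myeloma. The control group is 3 libraries (numbers 1, 3 and 5) from control mice. Both groups carry the GFP reporter. The sources used here do not give the strain or age of the mice, the time since injection or what control mice received.

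MAPK cascades carry signals from the T cell receptor, cytokine receptors and stress sensors to the nucleus through the kinases ERK, JNK and p38. Dual-specificity phosphatases of the MAPK phosphatase class, encoded by Dusp genes, remove the activating phosphates from these kinases. Sprouty and Spred proteins act further upstream and restrain the RAS to RAF step. Many of these genes are switched on by the signal that their products then dampen, so they are also read as markers of recent signalling in T cells.

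Sequencing depth ran from 10240620 to 13314631 total expected counts per library. T cell and regulatory T cell markers (Cd3e, Cd3d, Cd3g, Cd4, Foxp3, Il2ra, Ctla4 and Ikzf2) summed to 4999 to 5228 CPM in myeloma and 4489 to 5910 in controls. CPM is a gene's reads scaled to a common library size. The summed markers of other cells did not overlap between the groups in 3 of 7 lists. Plasma cell markers ran from 359 to 645 CPM in myeloma against 218 to 288 in controls, and monocyte and macrophage markers from 378 to 796 against 209 to 284. Erythroid markers ran from 3849 to 4771 CPM in myeloma against 6714 to 14730 in controls. B cell markers overlapped, at 34.1 to 81.3 CPM in myeloma and 56.2 to 351 in controls, as did neutrophil (140 to 493 and 66.0 to 199), NK cell (4.47 to 9.198 and 3.26 to 4.72) and CD8 T cell markers (13.5 to 22.4 and 11.0 to 13.8). Gene by gene, 6 of 11 tested B cell markers and 5 of 8 erythroid markers were called lower in myeloma by edgeR (adjusted p under 0.05). Called higher were 2 of 8 plasma cell, 3 of 9 monocyte and macrophage and 1 of 2 NK cell markers. Of the T cell and regulatory T cell markers, 1 of 8 was called higher and 0 lower. Over all genes tested, 4.69% were called lower and 6.33% higher. No gene of the marker lists was at 0 in every library. Part of a difference in a bulk sample can come from fewer cells of a type or from less RNA per cell, and these cannot be told apart here.

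Dusp1, Dusp10 and Spry1 were lower in the marrow regulatory T cells of the myeloma group. Dusp1 fell to 402 ± 43.7 CPM (SD, n = 3) from 894 ± 304 in controls (n = 3), Dusp10 to 28.3 ± 4.81 from 46.4 ± 3.96, and Spry1 to 17.7 ± 0.240 from 32.4 ± 7.94. The other 6 genes with enough counts to test, Dusp2, Dusp4, Dusp5, Dusp6, Spred1 and Spred2, did not pass, and Spry2 was at the edge of detection. With p-values of edgeR's quasi-likelihood test adjusted by Benjamini-Hochberg over 13235 genes, and a threshold of 0.05, 3 of 9 tested members were called lower and 0 higher. At an unadjusted p under 0.05 the counts were 4 lower and 0 higher, and the share of all genes at that p was not counted. DESeq2 and limma-voom each called 3 members lower and 0 higher. Over all genes, DESeq2 called 872 lower and 996 higher, and limma-voom 586 lower and 791 higher. Among all genes tested with edgeR, 11.0% were called, 4.69% lower (621 genes) and 6.33% higher (838 genes). Scaled by library size with no TMM factor, 1004 genes were lower and 633 higher, and the same 3 members were called. Leaving out myeloma library 3 or 4 took the members called lower to 0, and leaving out control library 3 took them to 1 (Dusp1). Leaving out control library 1 took them to 4, with Dusp2 added. In those fits the number of all genes called lower was 207, 177, 123 and 523, in that order, against 621 with every library. The median log2 fold change of the 9 was -0.57, beside 0.02 over all genes tested, and 8 of the 9 were below 0. In 3 of the 9 every myeloma library lay below every control library in CPM, where 16.0% of all genes tested were separated in that direction.

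**Figure D1:**
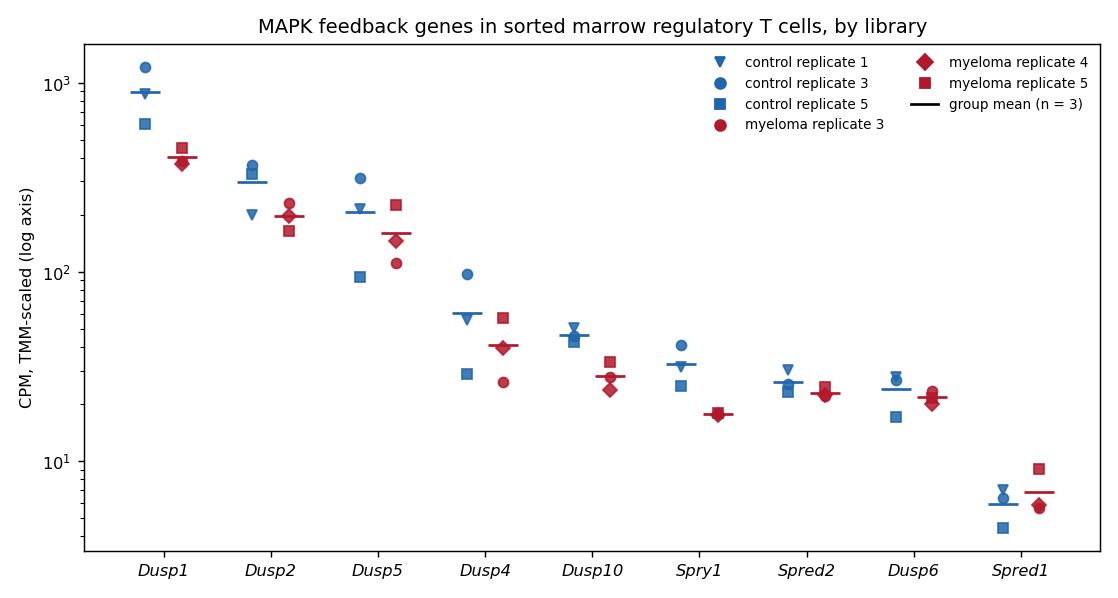
CPM of the 9 tested genes on a log axis, one symbol per library (blue for control, red for myeloma, shape for replicate number) with a bar at each group mean of 3 libraries. All 3 myeloma symbols lie below all 3 control symbols for Dusp1, Dusp10 and Spry1, and the groups overlap for the other 6.

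Per unit of transcript length, the Dusp genes of the nuclear, rapidly induced kind were the most abundant. In controls the deposited TPM, a transcript abundance scaled by length and library total, averaged 805 ± 216 for Dusp1, 359 ± 103 for Dusp2, 137 ± 66.4 for Dusp5 and 35.9 ± 18.4 for Dusp4 (SD, n = 3). Below these came Dusp10 at 27.4 ± 2.80 TPM, Spry1 at 21.6 ± 4.30, Dusp6 at 14.03 ± 3.18, Spred2 at 11.0 ± 1.83, Spred1 at 1.69 ± 0.547 and Spry2 at 0.567 ± 0.314. The control values of Dusp1 lay above those of Dusp2, and those of Dusp2 above those of Dusp5, without overlap. Dusp5 and Dusp4 did not overlap either, while Dusp4, Dusp10 and Spry1 overlapped in their control ranges, as did Dusp6 and Spred2. In myeloma the order was Dusp1 (319 ± 8.05 TPM), Dusp2 (203 ± 46.1), Dusp5 (89.8 ± 27.7), Dusp4 (20.5 ± 6.69), Dusp10 (14.01 ± 1.88), Dusp6 (10.8 ± 1.26), Spry1 (9.80 ± 0.563), Spred2 (7.81 ± 0.141), Spred1 (1.67 ± 0.316) and Spry2 (0.210 ± 0.364).

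Summed over the 10 genes, the level was 694, 660 and 675 TPM in the myeloma libraries 3, 4 and 5 and 1328, 1754 and 1159 TPM in the control libraries 1, 3 and 5. Dusp1 alone made up 46.0%, 47.0% and 48.4% of that sum in myeloma and 61.7%, 57.8% and 50.2% in controls. Dusp1 and Dusp2 together made up 71.5% to 81.7% in myeloma and 79.8% to 87.0% in controls. The deposited TPM has no TMM factor. In every tested member the myeloma mean relative to the control mean was lower in TPM than in CPM. For Dusp6 the myeloma and control means were 10.8 and 14.03 in TPM but 21.7 and 23.9 in CPM. That shift is part of the gap between the summed TPM values. With library sizes alone and no TMM factor, the fitted log2 fold change of Dusp6 went from -0.14 to -0.21. The source of the shift between CPM and TPM was not tested.

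Dusp1 encodes MKP-1, a nuclear phosphatase that acts on p38 and JNK and also on ERK. The gene (ENSMUSG00000024190.6) lies on the minus strand at chr17:26505590-26508519 in mm10, over the exons of the 3 transcripts that the tables count. The 250 bases before its start in RefSeq (GRCm38.p6, chr17:26508473-26508722, minus strand) are shown because they hold a full cyclic AMP response element (CRE), TGACGTCA, the letters bound by CREB and ATF factors. Capitals mark the full CRE, at bases -143 to -136, and a separate core, TGACG, at bases -191 to -187, counted back from the start with the base before it as -1.

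Dusp1 promoter: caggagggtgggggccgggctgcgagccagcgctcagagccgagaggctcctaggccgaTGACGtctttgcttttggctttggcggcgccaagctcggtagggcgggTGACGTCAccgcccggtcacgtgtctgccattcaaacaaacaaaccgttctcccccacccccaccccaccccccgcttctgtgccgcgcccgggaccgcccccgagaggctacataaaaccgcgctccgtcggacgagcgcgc

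Full CREs were found in 1.88% of 27025 promoters of the same 300 bases (250 before the start and 50 after), and cores, which include those inside a full CRE, in 21.0%, with both strands searched. Promoters were available for 9 of the 10 members. Of these 9, 1 held the full element and 4 held a core, namely Dusp1, Dusp2, Dusp5 and Spred2. A match is a run of letters and not a measured binding site.

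Dusp1 stood at 384, 370 and 452 CPM in the myeloma libraries 3, 4 and 5. In the control libraries 1, 3 and 5 it stood at 874, 1208 and 601 CPM. The myeloma libraries sat close together and below every control, and the controls were spread from 601 to 1208 CPM, with replicate 3 highest and replicate 5 lowest. Dusp1 was 2.23-fold lower in myeloma (log2 fold change -1.15, SE 0.22, 95% interval -1.65 to -0.66, adjusted p = 0.0132). The call was lost without myeloma replicate 3 (adjusted p = 0.0539) or myeloma replicate 4 (0.0682). In TPM the values were 319, 311 and 327 in myeloma and 819, 1014 and 582 in controls, also without overlap.

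Dusp10 encodes MKP-5, which prefers JNK and p38 over ERK. The gene (ENSMUSG00000039384.8) lies on the plus strand at chr1:184013302-184075636. It stood at 27.8, 23.7 and 33.3 CPM in the myeloma libraries 3, 4 and 5 and at 50.6, 46.0 and 42.7 CPM in the control libraries 1, 3 and 5. The groups did not overlap, and the controls varied less for Dusp10 than for Dusp1, with an SD of 3.96 CPM on a mean of 46.4 against 304 on 894. Dusp10 was 1.64-fold lower in myeloma (log2 fold change -0.71, SE 0.14, 95% interval -1.02 to -0.40, adjusted p = 0.0143). Its adjusted p rose to 0.0525 without either myeloma replicate 3 or 4, and to 0.0572 without control replicate 3.

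Spry1 encodes Sprouty 1, an inhibitor of RAS to ERK signalling that is induced by T cell receptor stimulation. The gene (ENSMUSG00000037211.12) lies at chr3:37639947-37644598, plus strand. Its CPM was 17.8, 17.4 and 17.9 in the myeloma libraries 3, 4 and 5, and 31.4, 40.8 and 25.0 in the control libraries 1, 3 and 5. The myeloma libraries were nearly equal and all lay below the lowest control. Spry1 was 1.83-fold lower in myeloma (log2 fold change -0.87, SE 0.18, 95% interval -1.27 to -0.47, adjusted p = 0.0175). Its adjusted p rose to 0.0571 and 0.0702 when myeloma replicate 3 or 4 was left out, and to 0.0629 when control replicate 3 was. A transcript on the other strand, Gm42922, overlaps its exons, and its level was 0.00 to 0.546 CPM in the 6 libraries.

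The promoters of Dusp10 (chr1:184034131-184034380, plus strand, a start inside the gene's span above) and Spry1 (chr3:37639697-37639946, plus strand) are shown for comparison with Dusp1, since all 3 genes were lower in myeloma. None of the 7 motifs searched was found in either window, so no base is in capitals.

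Dusp10 promoter: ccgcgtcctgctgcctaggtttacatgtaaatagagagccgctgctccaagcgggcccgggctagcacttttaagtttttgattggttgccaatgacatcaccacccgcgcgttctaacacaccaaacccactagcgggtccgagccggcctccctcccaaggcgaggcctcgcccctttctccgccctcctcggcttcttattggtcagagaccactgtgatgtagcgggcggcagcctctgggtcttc
Spry1 promoter: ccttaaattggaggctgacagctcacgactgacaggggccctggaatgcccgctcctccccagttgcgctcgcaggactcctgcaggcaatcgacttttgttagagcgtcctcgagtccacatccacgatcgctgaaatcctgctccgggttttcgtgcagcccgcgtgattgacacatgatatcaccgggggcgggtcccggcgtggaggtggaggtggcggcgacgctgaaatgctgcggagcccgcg

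The motifs were the CRE and its core, the AP-1 site TGANTCA, the CArG box bound by serum response factor, the ETS core CCGGAAG, an interferon-stimulated response element (ISRE) and the GAS element TTCNNNGAA. AP-1 sites occurred in 7.93% of all promoters searched, ETS cores in 9.12%, ISREs in 3.49% and GAS elements in 8.47%, and 0 of the 9 member promoters held any of these 4.

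Summed B cell markers were higher in control replicates 3 (275 CPM) and 5 (351 CPM) than in control replicate 1 (56.2 CPM), which lay within the myeloma range of 34.1 to 81.3 CPM. Of the B cell markers, 6 of 11 were called lower in myeloma, as Dusp1, Dusp10 and Spry1 were. Of the tested members only Dusp2 was likewise lower in control replicate 1 (199 CPM) than in control replicates 3 (367 CPM) and 5 (327 CPM). Among the controls, Dusp1 and Spry1 were lowest in replicate 5, and Dusp10 was highest in replicate 1. Summed erythroid markers stood at 6714, 14730 and 10370 CPM in the control libraries 1, 3 and 5, the same order as Dusp2. Their highest library was control replicate 3, as it was for Dusp1 and Spry1 but not for Dusp10. The summed erythroid, plasma cell and macrophage markers did not overlap between the groups. The part of B cell, erythroid, plasma cell and macrophage RNA in the lower Dusp1, Dusp10 and Spry1, or in the level of Dusp2, was not tested.

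**Figure D2:**
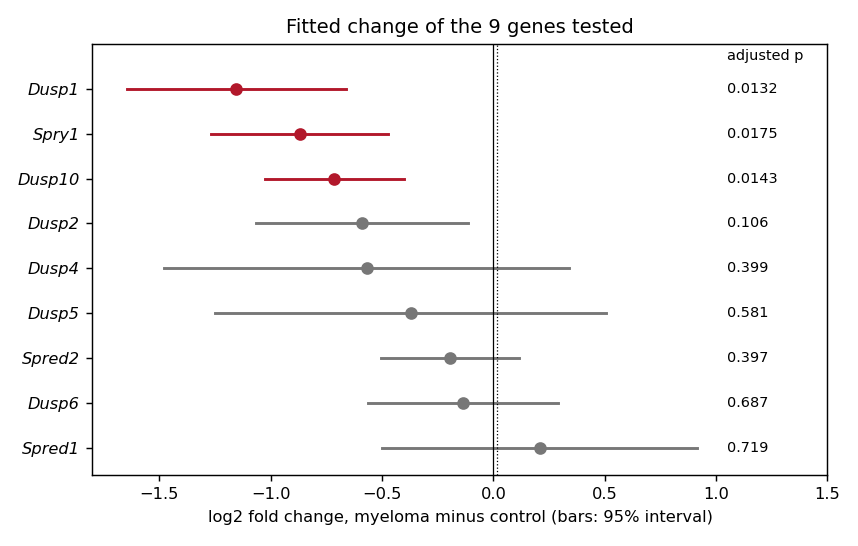
Log2 fold change of each tested gene, myeloma minus control, with its 95% interval and adjusted p. Red marks genes called lower, grey those not called, and the dotted line is the median of all genes tested (0.02). The intervals of Dusp1, Spry1 and Dusp10 lie furthest from 0, and those of Dusp4, Dusp5 and Spred1 are the widest.

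Dusp2 encodes PAC-1, a nuclear phosphatase of activated lymphocytes, and was the second most abundant member. Its CPM was 231, 198 and 165 in the myeloma libraries 3, 4 and 5, and 199, 367 and 327 in the control libraries 1, 3 and 5. Control replicate 1 lay among the myeloma libraries, and the other controls were above all of them. The log2 fold change was -0.59 (SE 0.21, 95% interval -1.06 to -0.11, adjusted p = 0.106), so Dusp2 was not called. Without control replicate 1 it passed, at -0.82 (adjusted p = 0.0137).

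Dusp4 encodes MKP-2 and Dusp5 an ERK-specific nuclear phosphatase, both induced by ERK signalling. Dusp4 stood at 26.0, 39.6 and 57.1 CPM in the myeloma libraries 3, 4 and 5 and at 55.7, 97.7 and 29.0 CPM in the control libraries 1, 3 and 5. Dusp5 stood at 111, 145 and 225 CPM in the same myeloma libraries and at 215, 313 and 93.7 CPM in the same controls. In both genes control replicate 3 was highest, followed by myeloma replicate 5, control replicate 1 and myeloma replicate 4, with control replicate 5 and myeloma replicate 3 lowest. The groups overlapped throughout. The log2 fold change of Dusp4 was -0.57 (SE 0.40, 95% interval -1.48 to 0.34, adjusted p = 0.399). That of Dusp5 was -0.37 (SE 0.39, 95% interval -1.25 to 0.51, adjusted p = 0.581), and its sign turned without control replicate 3 (0.05). Without that library Dusp4 was at -0.05. Decreases of up to 2.37-fold in Dusp5 and 2.79-fold in Dusp4 lie inside their intervals.

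Pearson's r of log2 CPM between Dusp4 and Dusp5 was 0.97 over the 6 libraries, and 0.98 after each group's mean was removed. Ranked by likeness to Dusp4, Dusp5 was number 4 of 13234 genes. These are descriptions of 6 points that share library depth and composition. By r over the 6 libraries, Dusp2 did not follow them (0.15 with Dusp4 and -0.04 with Dusp5). The shared profile was not particular to this pair. After each group's mean was removed, Dusp1 had r = 0.92 with Dusp4 and 0.94 with Dusp5, and Spry1 0.84 with both. Spred1 then stood at 0.79 and 0.86, Dusp10 at 0.42 and 0.53, and Dusp2 at -0.15 and -0.26.

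The promoter of Dusp5 (chr19:53528895-53529144, plus strand) is shown because it holds a pair of adjoining CArG boxes, at bases -82 to -73 and -72 to -63, followed by a CRE core on the other strand at bases -55 to -51, all in capitals. A CArG box was found in 1.57% of the 27025 promoters and in 1 of the 9 member promoters.

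Dusp5 promoter: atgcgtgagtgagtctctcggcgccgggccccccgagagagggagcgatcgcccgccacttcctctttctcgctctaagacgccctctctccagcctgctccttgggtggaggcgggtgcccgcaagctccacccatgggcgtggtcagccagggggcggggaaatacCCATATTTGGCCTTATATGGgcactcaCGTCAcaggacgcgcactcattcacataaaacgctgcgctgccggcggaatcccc

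**Figure D3:**
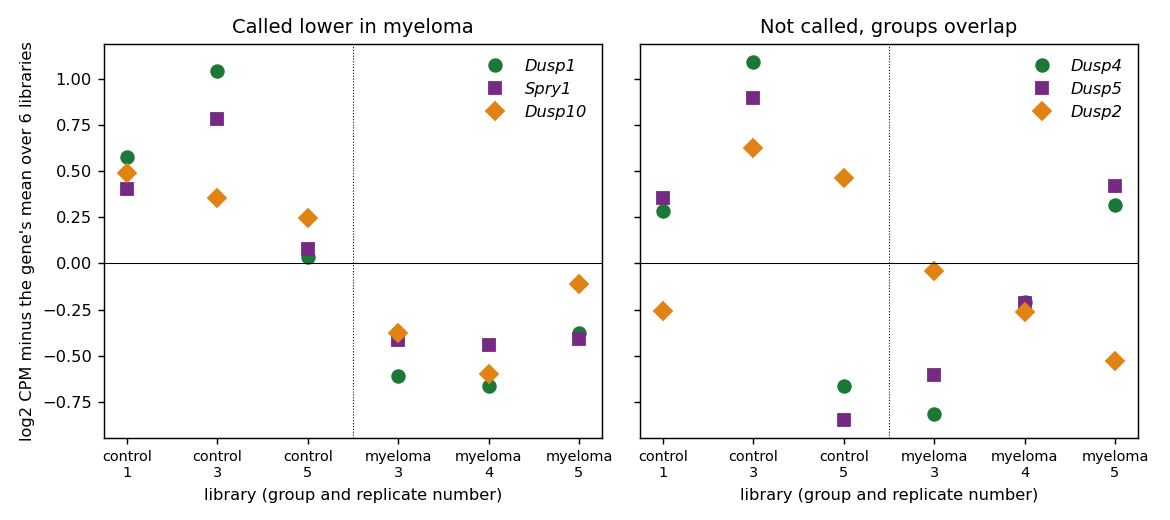
Log2 CPM of 6 genes in each library, less the gene's mean over the 6 libraries. On the left Dusp1, Spry1 and Dusp10 are above 0 in all 3 controls and below 0 in all 3 myeloma libraries. On the right Dusp4 and Dusp5 share their high and low libraries across both groups, and Dusp2 lies on the other side of 0 from them in control replicates 1 and 5 and in myeloma replicate 5.

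Dusp6 encodes MKP-3, a cytoplasmic phosphatase specific to ERK and a common readout of ERK activity. Its CPM was 23.4, 19.9 and 21.6 in the myeloma libraries 3, 4 and 5 and 27.8, 26.7 and 17.1 in the control libraries 1, 3 and 5. The myeloma libraries lay between the controls. The log2 fold change was -0.14 (SE 0.19, adjusted p = 0.687), and its 95% interval, -0.56 to 0.29, leaves room for a change of up to 1.48-fold downward.

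The Spred genes, whose products bring neurofibromin to RAS, were not called. Spred2 stood at 22.01, 22.4 and 24.5 CPM in the myeloma libraries 3, 4 and 5 and at 30.4, 25.5 and 23.0 in the control libraries 1, 3 and 5. Control replicate 5 fell between myeloma libraries, and the log2 fold change was -0.19 (SE 0.14, adjusted p = 0.397). In TPM the same gene did not overlap, at 7.68 to 7.96 in myeloma against 9.95 to 13.1 in controls, so its separation depends on the scale. Spred1 was low, at 5.67, 5.86 and 9.02 CPM in myeloma and 7.02, 6.36 and 4.43 in controls (0.21, SE 0.31, adjusted p = 0.719). The highest library of Spred1 was myeloma replicate 5, and without it the sign turned (-0.05).

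Spry2, a second Sprouty gene, had 0 expected counts in myeloma replicates 3 and 4 and 11 in replicate 5, against 5, 7 and 15 in the control libraries 1, 3 and 5. A count of 0 allows up to 3 counts, or 0.254 CPM in myeloma replicate 3 and 0.298 CPM in replicate 4, for counting error alone. The gene did not pass the filter on low counts, and a difference was not detectable at this depth.

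For the 3 genes called lower, the genes with the most similar levels over the 6 libraries were found among 9528 genes outside the 10 that averaged 5 CPM or more. The nearest to Dusp1 were Spty2d1, a histone chaperone gene (r = 0.993), and Sik1, a salt-inducible kinase gene (r = 0.990). Those nearest to Spry1 were the phosphatase gene Ptp4a1 (0.996) and Btg2, an antiproliferative gene (0.992), and those nearest to Dusp10 were Ints10, an Integrator subunit gene (0.992), and Btbd9 (0.992). Between the members themselves, Dusp1 and Spry1 had r = 0.991, above the value of Sik1 with Dusp1. Among genes with this measure, r is set partly by the difference between the groups and is given without a test. After their values were seen, the same was done for Dusp4 and Dusp5. Fosl2, which encodes an AP-1 subunit, was the nearest of these outside genes to Dusp4 (0.998) and, behind Ubald2 (0.975), the second nearest of them to Dusp5 (0.969), where Dusp4 itself had 0.974. Fosl2 stood at 24.0, 32.3 and 39.7 CPM in myeloma and 37.7, 54.1 and 26.0 in controls and was not called (adjusted p = 0.509).

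Genes related to these 10 showed no called change. The list holds 22 other dual-specificity, Sprouty, Spred and MAPK-directed tyrosine phosphatase genes, of which 13 were tested, with 0 called higher and 0 lower by edgeR. Over all genes tested, edgeR called 6.33% higher and 4.69% lower. At an unadjusted p under 0.05 the list had 2 higher and 0 lower, and the share of all genes at that p was not counted. The list's median log2 fold change was 0.35, with 11 above 0 and 2 below. The ERK phosphatase gene Ptpn7 was at 220 and 192 CPM on average in myeloma and control (0.19, adjusted p = 0.367), and Dusp7, another ERK-directed cytoplasmic phosphatase gene, at 62.3 and 60.3 CPM (0.05, adjusted p = 0.885). The nearest to the threshold was Dusp28 (0.86, SE 0.26, adjusted p = 0.0635), named after its value was seen. With DESeq2, 1 of the list was called higher and 0 lower, and with limma-voom 0 and 0.

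The cascade upstream of the feedback genes held calls in both directions. In the RAS to ERK list, 4 of 32 tested genes were called lower and 1 higher, with a median log2 fold change of -0.04. Of all genes tested, 4.69% were called lower and 6.33% higher. Braf, the RAF kinase gene, averaged 55.1 ± 4.95 CPM in myeloma against 74.9 ± 1.36 in controls, and its log2 fold change was -0.44 (SE 0.09, adjusted p = 0.0185). Rasgrp2 (-0.52, adjusted p = 0.0227) and Rasgrp1 (-0.37, adjusted p = 0.0369), which encode RAS-family exchange factors of lymphocytes, and Sos2 (-0.42, adjusted p = 0.0386), another exchange factor gene, were also lower. Rras, a RAS-related GTPase gene, was higher (0.78, SE 0.21, adjusted p = 0.0433). The calls in this list were unstable to single libraries. Over all genes the number lower also went from 621 to between 123 and 546. In the list, the number lower went to 0 without myeloma library 4 or control library 3, and to 1 without control library 5. It went to 2 without myeloma library 3 or control library 1, and Rras lost its call whichever library was left out.

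In the p38 and JNK list, 7 of 28 tested genes were called lower and 2 higher, with a median of -0.17. The shares over all genes tested were 4.69% lower and 6.33% higher. Map4k4, an upstream JNK pathway kinase gene, averaged 160 ± 10.3 CPM in myeloma against 233 ± 14.4 in controls (-0.55, SE 0.09, adjusted p = 0.00708). Map3k4 (-0.47, adjusted p = 0.0201), its activator gene Gadd45a (-0.78, adjusted p = 0.0266) and Map3k1 (-0.36, adjusted p = 0.028) were also lower. Map2k3, which encodes a p38 kinase kinase (0.69, SE 0.14, adjusted p = 0.0162), and Mapkapk3, a p38 substrate kinase gene (0.37, SE 0.09, adjusted p = 0.0378), were higher. Leaving out number 3 or 4 of the myeloma libraries, or number 3 or 5 of the controls, took the number lower to 1. In those fits 207, 177, 123 and 265 of all genes were called lower, in that order, against 621 with every library. The number higher in the list was 0 when myeloma library 3 or either of the controls 3 and 5 was left out, and 1 when any other was. With those 0 counts, 452, 331 and 445 of all genes were called higher, against 838 with every library.

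Early response genes of MAPK signalling had 8 of 34 tested members lower and 1 higher, with a median of -0.26. Beside them, 4.69% of all genes tested were called lower and 6.33% higher. Btg2 averaged 253 ± 6.91 CPM in myeloma against 571 ± 152 in controls, with -1.18 on the log2 scale (SE 0.17, adjusted p = 0.00414). Zfp36, whose product speeds the decay of AU-rich mRNAs, was at 323 ± 34.7 and 703 ± 198 CPM (-1.12, SE 0.18, adjusted p = 0.00746). The AP-1 genes Fos (-2.19, SE 0.39, adjusted p = 0.011) and Jun (-2.01, SE 0.37, adjusted p = 0.012) were lower as well. Nr4a3, an orphan nuclear receptor gene induced through the T cell receptor, was higher, at 49.3 ± 2.95 against 19.3 ± 7.40 CPM (1.36, SE 0.22, adjusted p = 0.00807). Other Nr4a and Egr genes of the list, named after their values were seen, were not called. Nr4a1 (-0.59) and Nr4a2 (-1.28) were below 0, and Egr1 (0.38), Egr2 (0.51) and Egr3 (0.79) above it. Summed over all 36 genes of the list, the level was 5704, 5386 and 6481 CPM in the myeloma libraries 3, 4 and 5 and 7551, 10940 and 7795 CPM in the control libraries 1, 3 and 5. The highest library was the control replicate 3 in which Dusp1, Dusp2, Spry1, Dusp4 and Dusp5 were also highest. Left out singly, myeloma libraries 3 and 4 and control library 3 took the number lower in the list to 2, 3 and 4. The number of all genes called lower in those fits was 207, 177 and 123, against 621 with every library. Without control library 1 the number higher in the list was 2, where 644 of all genes were called higher, against 838 with every library.

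**Figure D4:**
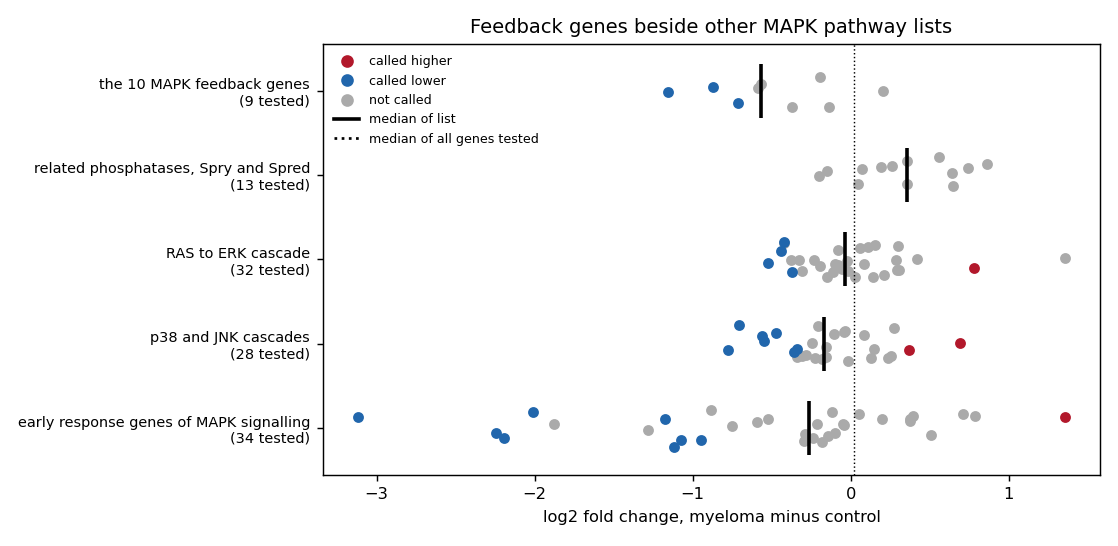
Log2 fold change of each tested gene, myeloma minus control, in the 9 tested feedback genes and in 4 other lists, with the list's median as a black bar and the median of all genes tested as a dotted line. The feedback genes have the lowest median, -0.57, the early response genes reach furthest down, and the related phosphatase, Spry and Spred genes have a median of 0.35 with no gene called.

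**Figure D5:**
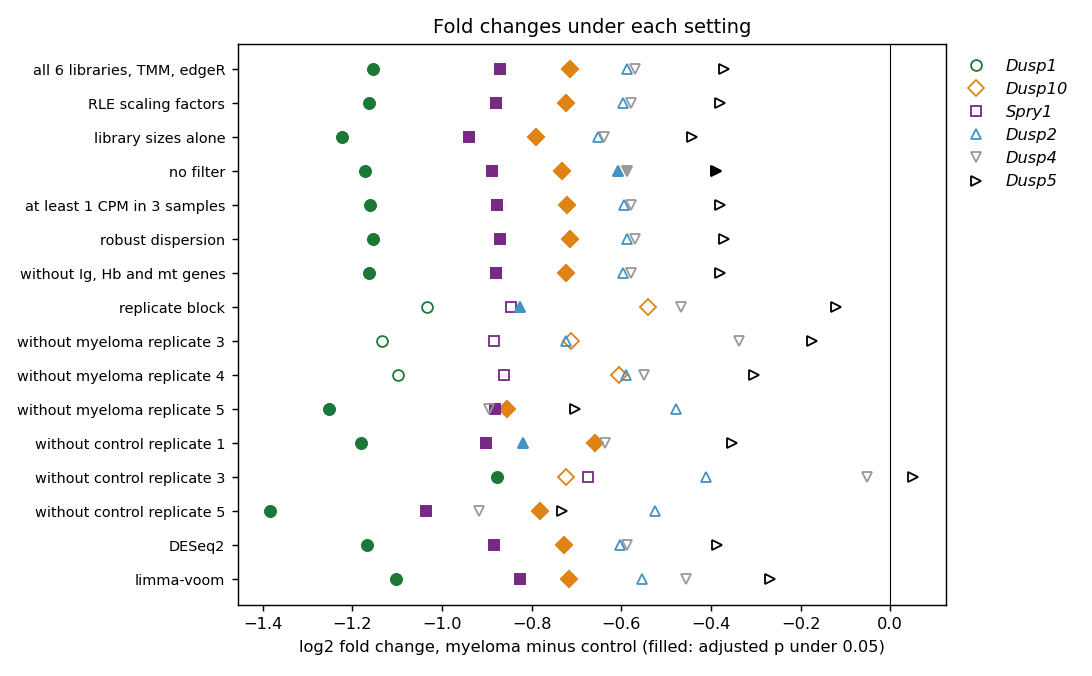
Log2 fold change of 6 feedback genes under each processing setting, filled where the adjusted p was under 0.05. Dusp1, Dusp10 and Spry1 stayed below 0 in all 16 settings shown, from -1.38 to -0.54, and lost calls when single libraries were left out or replicate numbers were used as a block, while Dusp5 crossed 0 without control replicate 3.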

How the data were processed

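RNA was sequenced from CD4+ FOXP3-GFP+ marrow cells prepared, per the labels' protocols, with NEBNext Ultra RNA reagents, and the submitters' processing notes name STAR, RSEM, Picard, DESeq2 and mm10. The sources used here give no tool versions. The authors deposited 1 RSEM table per library with expected counts, which are not normalized, and TPM, which is scaled by effective length and library total, per the file headers. Transcript lengths and effective lengths in the deposited tables entered no test.

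Expected counts were rounded, filtered with filterByExpr (at least 10 counts, total at least 15) and given TMM factors. The test was glmQLFTest in edgeR 4.0.16 (R 4.3.3), with p-values of 13235 genes adjusted by Benjamini-Hochberg. All adjusted p-values are from this test unless another is named. CPM uses TMM-scaled library sizes, SE is the fold change over the root of F, and intervals are 95%. The procedure was tested on simulated data. Nothing ties libraries to separate mice beyond the series design, so p-values measure the spread between libraries, which may be technical. Of the identifiers, 47224 of 47643 matched reference symbols. Positions are GENCODE M21 exons of the transcripts the tables list, and promoters are RefSeq's.

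The members, lists and naming rule were chosen with earlier results of these data known. The rule names every member, up to 4 called genes per direction and list, and the 2 genes most like each called member. Likeness leaves out the members, predicted models, pseudogenes and antigen receptor genes and uses log2 CPM with a prior count of 2. Alternatives were RLE factors, library sizes alone, no filter, 1 CPM in 3 samples, robust dispersion, a fit without immunoglobulin, haemoglobin and mitochondrial genes, DESeq2 1.42.0, limma-voom (3.58.1), a replicate block and leaving out each library.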

Additional observations from a re-analysis of the deposited data

How the results depend on the processing

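Dusp1 (log2 fold change -1.38 to -0.88), Dusp10 (-0.85 to -0.54) and Spry1 (-1.04 to -0.67) were below 0 in all 15 alternatives, and were called in 12, 11 and 11. The number of members called lower was 3 with each of the scaling, filter and tool alternatives other than the fit with no filter, where it was 6, and 0 to 4 whichever library was left out. The members called higher were 0 in every setting. With no filter, genes whose groups overlap (Dusp2, Dusp4, Dusp5) received adjusted p-values of 7.08e-07, 5.51e-05 and 0.00458, and the cause was not tested.

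Over all genes, 838 were higher and 621 lower. The counts were 1337 and 1102 with no filter, 633 higher and 1004 lower with library sizes alone, and 331 to 836 higher and 123 to 546 lower when a library was left out. In the lists, the fit with no filter called 1 relative higher, 7 RAS to ERK genes lower, and 4 early response genes higher and 14 lower. DESeq2 called 1 relative and 2 early response genes higher. In the RAS to ERK list 0 were higher with library sizes alone and with limma-voom, and in the p38 and JNK list 1 was higher with library sizes alone. Robust dispersion called 4 early response genes lower, without Fos (0.084) and Jun (0.0875). Leaving out single libraries gave 0 to 1 relatives higher, 0 RAS to ERK genes higher and 0 to 4 lower, 0 to 1 p38 and JNK genes higher and 1 to 6 lower, and 1 to 2 early response genes higher and 2 to 9 lower. Leaving out single libraries gave log2 fold changes of -0.73 to 0.052 for Dusp5, which turned sign without control replicate 3, and of -0.048 to 0.34 for Spred1, which turned sign without myeloma replicate 5.

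Replicate numbers 3 and 5 occur in both groups. Deviations from the group means correlated at 0.0295 for number 3 and 0.0974 for number 5. Between libraries of unlike number they ran from -0.0812 to 0.0483, so number 5 was the highest of all. With only 2 shared numbers, these values do not settle whether libraries are paired. With the replicate block 362 genes were higher and 142 lower over all genes, and among the members 1 was lower, Dusp2 (-0.83, adjusted p = 0.0228), while Dusp1 (0.103), Dusp10 (0.119) and Spry1 (0.0967) were not called and Dusp6 turned to 0.07. The replicate block called 0 RAS to ERK genes higher and 0 lower, 1 p38 and JNK gene higher and 1 lower, and 2 early response genes higher and 4 lower. That contrast rests on 2 pairs.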
